A study of Mus musculus with 12 samples.

Results

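Mitosis genes encode the enzymes, motors and scaffolds that take a cell from the end of DNA replication to its division into daughter cells. The 46 genes described here were chosen by name, and all 46 were found among the 37620 gene IDs of the counts. They were ordered by role: 10 genes of mitotic entry, 7 of chromosome structure, 6 of the centromere and kinetochore, 5 of the spindle assembly checkpoint, 3 of the chromosomal passenger complex, 6 of spindle motors and microtubule proteins, 3 of anaphase and 6 of cytokinesis.

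RNA was sequenced in 12 libraries of neural stem cells from E14.5 embryos of C57BL/6J mice, kept dividing in Neurobasal-A medium with FGF-2 and EGF at 20 ng/ml each and B-27 without vitamin A. The 4 genotypes had 3 libraries each: E12-/- cells (E12KO), E12+/+ cells of litter mates (E12wt), E47-/- cells (E47KO) and E47+/+ cells of litter mates (E47wt). E12 and E47 are E proteins, transcription factors of the basic helix-loop-helix class that bind E boxes, and both are splice forms of the gene Tcf3. Neither the origin of a group's libraries (one culture or several, one embryo or several) nor the making of the alleles is given in the labels, so p-values measure only the spread between these libraries, which may be technical.

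Mitosis is driven by the kinase CDK1, which becomes active when cyclins bind it and the CDC25 phosphatases remove its inhibitory phosphates. Condensin then compacts the chromosomes, kinetochores attach them to the spindle, and the checkpoint holds the anaphase-promoting complex (APC/C) in check until every kinetochore is attached. Most of the genes are transcribed late in the cell cycle, so their RNA in a bulk culture depends on how many cells divide. In bulk RNA, fewer dividing cells and less RNA per dividing cell cannot be told apart.

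The libraries held 34515297 to 56835783 reads on genes and 18980 to 19617 genes with a read, and 3 reads corresponded to 0.0528 to 0.0869 counts per 1000000 reads (CPM). Every mitosis gene had at least 1659 reads in each library, so counting error was small beside the spread between libraries. Tcf3 lay between 72.9 and 117 CPM in all 12 libraries, and because its counts take in both splice forms they do not check the genotypes. All 8 markers of neural stem cells had at least 3 reads in every library, with a summed level of 7343 to 8569 CPM. Single markers moved more than the sum. Against the mean of E47wt, 5 of the 8 were higher and 3 lower in E47KO replicate 2. Hes5 moved furthest there, with 962 CPM against 291 to 496 CPM in the other libraries. E47KO replicate 2 stood apart from the other libraries, with the middle 50% of all genes spread from −0.33 to 0.36 around their mean on the log2 scale. It had the fewest reads, 34515297, with E47wt replicate 1 next at 37142828. E47KO replicate 3 had the most, 56835783, with E47wt replicate 2 next at 46976126. Y-linked transcripts were at 195 to 251 CPM in E47wt replicate 2 and in all 3 E47KO libraries, and at 0.404 CPM or less in the other 8 libraries, so sex was not balanced between E47wt and E47KO.

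Promoters of mitosis genes are known for the cell cycle homology region (CHR), a short element bound by the DREAM and MuvB complexes, and for the CCAAT box bound by NF-Y. Both elements were read from RefSeq promoters of build GRCm38.p6, which span 250 bases before to 50 bases after a gene's start and gave a promoter for 38 of the 46 genes (41 promoters, since some genes have more than 1). The letters searched on both strands were TTTGAA or TTCGAA for the CHR and CCAAT for the CCAAT box. The windows below are shown because they carry the elements that most of these genes share. Each runs 5′ to 3′ over the 110 bases before the start on the gene's own strand, and capitals mark the CHR (TTTGAA, or TTCAAA where it lies on the other strand) and the CCAAT box (CCAAT, or ATTGG on the other strand).
Cdk1 (chr10:69352913-69353022, minus strand): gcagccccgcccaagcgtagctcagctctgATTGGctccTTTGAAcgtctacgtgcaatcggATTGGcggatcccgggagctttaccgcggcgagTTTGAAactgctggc
Top2a (chr11:99024190-99024299, minus strand): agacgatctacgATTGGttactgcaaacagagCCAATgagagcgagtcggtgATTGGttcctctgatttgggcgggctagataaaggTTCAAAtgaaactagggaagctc
Kif11 (chr19:37376272-37376381, plus strand): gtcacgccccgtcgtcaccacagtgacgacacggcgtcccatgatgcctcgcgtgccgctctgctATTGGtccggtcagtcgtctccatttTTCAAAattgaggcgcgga
Ube2c (chr2:164769819-164769928, plus strand): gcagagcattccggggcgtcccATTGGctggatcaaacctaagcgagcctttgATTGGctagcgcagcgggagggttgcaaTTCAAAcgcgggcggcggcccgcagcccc
Cdc20 (chr4:118437344-118437453, minus strand): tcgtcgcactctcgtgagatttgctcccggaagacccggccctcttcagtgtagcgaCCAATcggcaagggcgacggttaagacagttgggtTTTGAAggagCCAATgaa
Espl1 (chr15:102296183-102296292, plus strand): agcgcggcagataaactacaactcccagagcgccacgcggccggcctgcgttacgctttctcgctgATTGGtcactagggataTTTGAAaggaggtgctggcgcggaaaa
Ccnb1 (chr13:100786487-100786596, minus strand): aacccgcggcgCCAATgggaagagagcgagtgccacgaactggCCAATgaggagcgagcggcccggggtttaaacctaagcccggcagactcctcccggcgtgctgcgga
Cdk1, the kinase itself, carried 2 CHR elements and 2 CCAAT boxes in its window. Top2a, Kif11, Ube2c, Cdc20 and Espl1 each carried 1 CHR in their windows, with 1 to 3 CCAAT boxes. The whole promoter can hold further matches, such as a CHR of Top2a at position −179 from the start. Other genes have their CHR after the start, outside such a window, as Cenpf at position 3, Plk1 at 31 and Aurka at 33. Ccnb1, the partner of CDK1, had 2 CCAAT boxes and no match to the CHR letters.

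A CHR was found in 30 of the 38 mitosis genes with a promoter (78.9%), against 21.7% of the 27025 genes of the promoter table, or 19.2% of its 32851 promoters. The form TTTGAA was held by 28 of the 38 genes (20.2% of all genes and 17.9% of all promoters) and TTCGAA by 4 (1.80% and 1.56%). A CCAAT box was held by 29 genes (76.3%, against 41.1% of all genes and 37.4% of all promoters). Both elements together stood in 27 genes (71.1%, against 8.61% of all genes and 7.53% of all promoters). Melk, Ncaph, Nuf2, Mad2l1, Birc5 and Nusap1 held neither. For comparison, 6 of 31 S phase genes with a promoter held a CHR (19.4%) and 5 held both elements (16.1%). E2F sites, here TTGGCGC or TTCGCGC, were the other way round, in 7 of 38 mitosis genes (18.4%) and 13 of 31 S phase genes (41.9%). Over the table they were in 4.47% of all genes and 3.89% of all promoters.

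**Figure D1:**
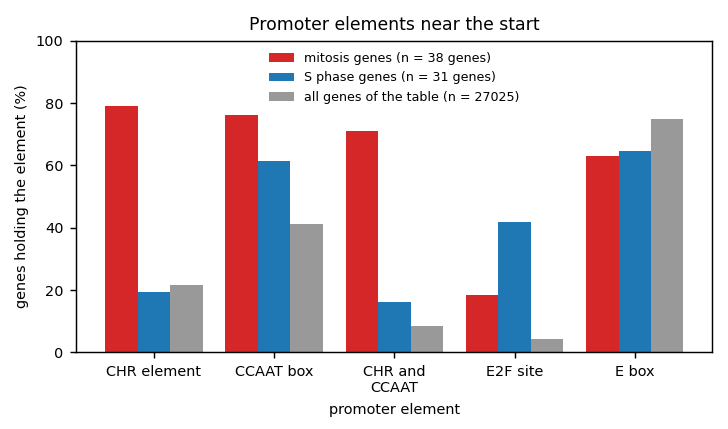
Share of genes (percent, vertical axis) whose RefSeq promoter holds each element (horizontal axis), for 38 mitosis genes (red), 31 S phase genes (blue) and all 27025 genes of the table (grey). The red bars reach 78.9% for the CHR and 71.1% for CHR and CCAAT together, above both other groups, while the red E box bar (63.2%) lies below the grey one.

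The E box, CANNTG, was held by 24 of the 38 mitosis genes (63.2%), against 72.3% of all promoters. Its forms CAGCTG and CAGGTG, which the general pattern takes in, were held by 6 (15.8%) and 2 (5.26%) of them. Over the table these forms were in 18.3% and 22.6% of all genes and in 16.3% and 20.2% of all promoters. A match of letters is a description of the window and shows no binding.

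Per length of the principal transcript, Top2a, which encodes topoisomerase II alpha and untangles sister chromatids, stood highest of the 46 genes, at a mean of 181 CPM per kilobase over the 12 libraries. Ube2c, the ubiquitin-conjugating enzyme of the APC/C, followed at 137, then Racgap1 at 127, Ccna2 at 121 and Ccnb1 at 119 CPM per kilobase. The ranges over libraries of neighbours in this order overlapped: Top2a ran from 124 to 222 and Ube2c from 117 to 160.3 CPM per kilobase. At the other end stood Espl1, which encodes the protease separase, at 11.97, the checkpoint gene Mad2l1 at 14.4 and the kinetochore gene Cenpf at 18.2 CPM per kilobase. The place of Mad2l1 rests on an annotated transcript of 7557 bases. The level of Ccnb1 is uncertain, because 40.6% of the 50-base stretches of its exons also occur in other genes, with the largest number in the pseudogene Ccnb1-ps. Reads that map to several places were left out of the counts.

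The comparison of E12KO with E12wt asks whether dividing stem cells without E12 hold less or more RNA of the mitotic machinery. No mitosis gene passed the test of edgeR's quasi-likelihood (QL) fit at a Benjamini-Hochberg (BH) adjusted p under 0.05, none reached an unadjusted p under 0.05, and none was separated by group, with all 3 knockout libraries on one side of all 3 wild-type libraries. The backgrounds over all 14755 genes tested were 0.0407% called, 8.96% at an unadjusted p under 0.05, 6.47% with all knockout libraries higher and 7.17% with all lower. The median log2 fold change of the 46 genes was −0.03 (0.00 over all genes), from −0.22 for Cdc25c to 0.24 for Cenpf. All 46 intervals held 0, and 46 lay within a 1.5-fold change and 40 within a 1.25-fold change in either direction. The 6 whose interval reached past 1.25-fold were Cdc25c, Ccnb2, Ncapg, Cenpf, Kif2c and Anln. DESeq2 called none of the 46 either (0.515% of 14754 genes with an adjusted p). In the authors' deposited table none had an adjusted p under 0.05, where 0.513% of 12088 genes did, and the lowest of the 46 was 0.554.

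For E47KO against E47wt the estimates lay in a similar range and the intervals were wider. Again no mitosis gene was called by edgeR's QL test, reached an unadjusted p under 0.05 or was separated by group, where over all 14965 genes 0.0134% were called, 2.19% had an unadjusted p under 0.05, and 4.02% and 3.88% had all knockout libraries higher or lower. The median log2 fold change was −0.08 (−0.01 over all genes), from −0.26 for Mki67 to 0.26 for Ccnb2. The median standard error of the 46 fold changes was 0.16, against 0.07 in the E12 line. All 46 intervals held 0, 35 lay within a 1.5-fold change and 4 within a 1.25-fold change, and the outermost bounds were −0.81 for Smc2 and 0.68 for Anln. DESeq2 called none (0.0888% of 13509 genes). In the authors' deposited table the lowest adjusted p of the 46 was 0.999, where 0.0796% of 12556 genes were under 0.05.

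**Figure D2:**
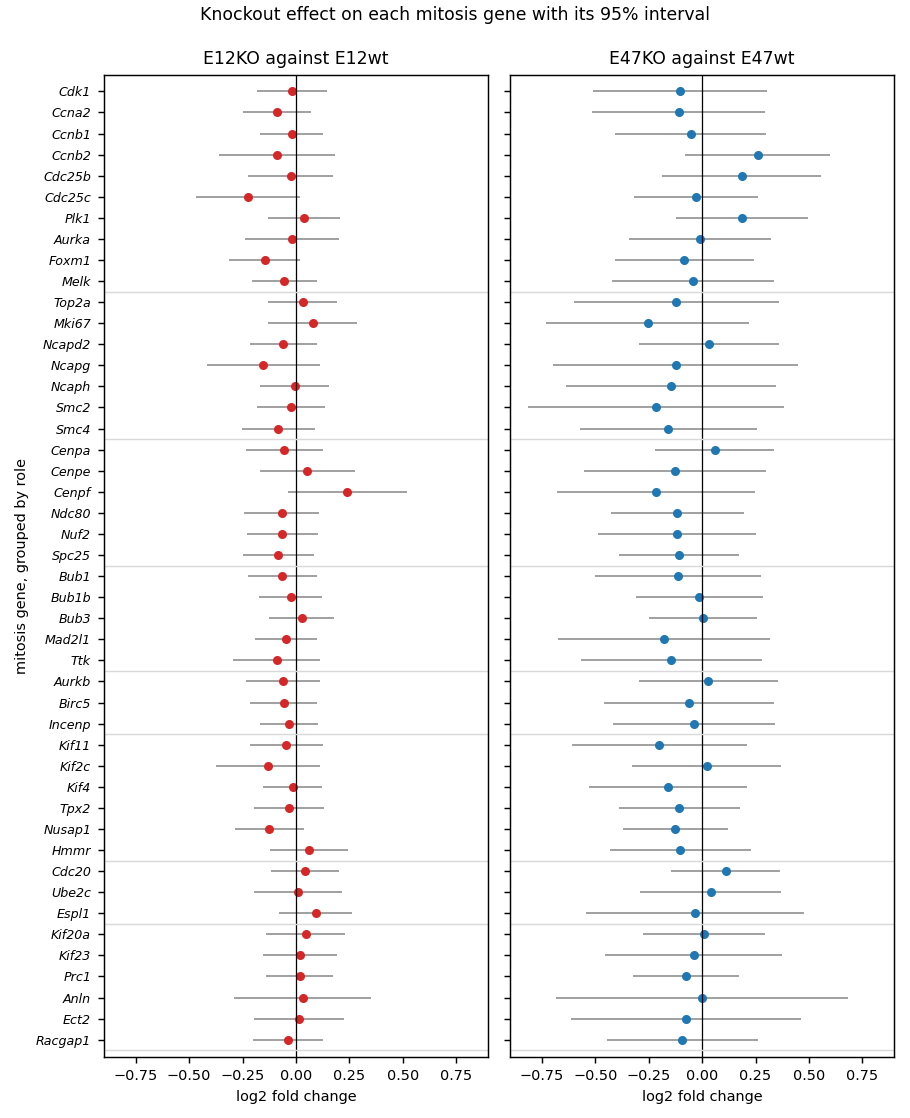
Log2 fold change (horizontal axis) of each mitosis gene (rows, grouped by role) in E12KO against E12wt (left) and E47KO against E47wt (right), with points for edgeR's estimates and lines for 95% intervals, n = 3 libraries a group. Every line crosses 0, and the lines of the E47 panel are the longer ones, with a median standard error of 0.16 against 0.07.

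More genes of the set lay below 0 than above it, yet that count hung on single libraries. In the E12 line 15 of 46 fold changes were above 0 (7578 of 14755 over all genes), which became 32 without E12wt replicate 3, 8 without E12wt replicate 1 and 9 without E12wt replicate 2 or E12KO replicate 2. In the E47 line 11 of 46 were above 0 (7328 of 14965 over all genes), which became 34 without E47KO replicate 2, 24 without E47wt replicate 3, 7 without E47wt replicate 1 or 2 and 5 without E47KO replicate 3. A term for sex in the E47 fit gave 19. That fit sets E47KO against E47wt replicate 2 alone, the only E47wt library with high Y-linked transcripts.

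Genes of mitotic entry lay on both sides of 0 in the E47 line. Cdk1, the master kinase, had 276, 251 and 289 CPM in E12wt, 261, 256 and 285 in E12KO, 260.1, 259 and 296 in E47wt and 267, 190.3 and 300.5 in E47KO (replicates 1 to 3 of each group, as in all such lists). Its groups overlapped in both lines, and E47KO replicate 2 was the lowest of the 12 libraries. Ccnb1, the cyclin that switches CDK1 on at mitosis, had 313, 277 and 317 CPM in E12wt, 295, 298 and 298 in E12KO, 279, 292 and 329 in E47wt and 283, 239 and 345 in E47KO. It followed the same order as Cdk1 in E47KO. Their log2 fold changes were −0.02 ± 0.07 and −0.02 ± 0.07 (SE) in E12KO and −0.10 ± 0.17 and −0.05 ± 0.15 in E47KO.

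Ccnb2, the other B-type cyclin of the set, had 45.01, 40.6 and 57.5 CPM in E12wt, 45.6, 43.4 and 45.1 in E12KO, 48.8, 47.9 and 60.8 in E47wt and 56.1, 61.6 and 70.8 in E47KO. Unlike Cdk1 it was higher in E47KO replicate 2 than in all 3 E47wt libraries, and highest in E47KO replicate 3, while E47KO replicate 1 lay among the wild types. Its log2 fold change in E47KO, 0.26 ± 0.15 (95% interval −0.08 to 0.60), had the smallest p of the 46 there (unadjusted 0.115 and BH-adjusted 0.971, edgeR QL). Cdc25b, one of the phosphatases that release CDK1, had 59.1, 57.6 and 71.1 CPM in E12wt, 62.1, 58.6 and 63.2 in E12KO, 53.7, 63.7 and 70.7 in E47wt and 64.7, 84.4 and 64.8 in E47KO. E47KO replicate 2 was its highest library of the 12, and the log2 fold change in E47KO was 0.18 ± 0.16.

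Cdc25c, the other CDC25 phosphatase of the set, had 56.5, 49.1 and 66.6 CPM in E12wt, 50.6, 48.98 and 47.2 in E12KO, 45.9, 51.99 and 57.01 in E47wt and 48.1, 49.7 and 54.02 in E47KO. E12wt replicates 1 and 3 lay above all E12KO libraries and E12wt replicate 2 lay among them. Its log2 fold change of −0.22 ± 0.11 in E12KO (95% interval −0.47 to 0.02) had the smallest p of the 46 in that comparison (unadjusted 0.065 and BH-adjusted 0.56, edgeR QL), and in E47KO it was −0.03 ± 0.12. Without E12wt replicate 2, Cdc25c reached a log2 fold change of −0.32 and an unadjusted p of 0.00828 (BH-adjusted 0.223, edgeR QL). In that setting 2158 of 15023 genes reached an unadjusted p under 0.05.

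Foxm1, a transcription factor that activates many genes of late cell cycle, had 177, 160.1 and 188 CPM in E12wt, 165, 148 and 158 in E12KO, 155, 154 and 192 in E47wt and 163, 137 and 174 in E47KO. Of its E12KO libraries, 2 lay below all E12wt libraries, with a log2 fold change of −0.15 ± 0.07 (BH-adjusted p = 0.572, edgeR QL), and in E47KO the value was −0.08 ± 0.14. Plk1, the polo-like kinase that helps start mitosis and build the spindle, had 78.9, 83.7 and 86.01 CPM in E12wt, 82.3, 78.9 and 93.2 in E12KO, 76.5, 82.2 and 96.2 in E47wt and 93.8, 87.999 and 108 in E47KO. E47KO replicates 1 and 2 lay among the E47wt libraries and replicate 3 above them, and its log2 fold changes were 0.04 ± 0.07 in E12KO and 0.19 ± 0.13 in E47KO. Counts of Plk1 are less certain, since 6.70% of its 50-base stretches also occur in the pseudogene Plk-ps1. Ccna2, Aurka and Melk, which encode cyclin A2, a centrosomal kinase and a kinase of dividing progenitors, had log2 fold changes of −0.09 ± 0.07, −0.02 ± 0.10 and −0.05 ± 0.07 in E12KO and −0.11 ± 0.17, −0.01 ± 0.14 and −0.04 ± 0.16 in E47KO.

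Chromosome structure genes lay further below the wild types in E47KO replicate 2 than any other role. Top2a had 949.8, 949 and 1001 CPM in E12wt, 938, 1064 and 948 in E12KO, 882, 992 and 996 in E47wt and 834, 646 and 1159.6 in E47KO. Mki67, the proliferation marker Ki-67 that coats mitotic chromosomes, had 537, 588 and 609 CPM in E12wt, 552, 682 and 591 in E12KO, 548, 573 and 638 in E47wt and 466, 362 and 645 in E47KO. In both genes E47KO replicate 2 was the lowest and E47KO replicate 3 the highest of the 6 E47 libraries. Mki67 had the lowest fold change of the 46 in E47KO, −0.26 ± 0.20 on the log2 scale (95% interval −0.73 to 0.22), against 0.08 ± 0.09 in E12KO, and Top2a had −0.12 ± 0.20 and 0.03 ± 0.07.

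Condensin I, the ring complex that compacts mitotic chromosomes, was measured by all 5 of its subunits. Ncapd2 had 392, 389 and 445 CPM in E12wt, 394, 377 and 402 in E12KO, 363, 379 and 466 in E47wt and 382, 385 and 467 in E47KO. Ncapg had 103, 98.9 and 134 CPM in E12wt, 96.8, 108 and 95.5 in E12KO, 87.9, 99.4 and 129 in E47wt and 90.3, 69.5 and 130.2 in E47KO. E47KO replicate 2 was 69.5 CPM for Ncapg, the lowest of its 12 libraries, while Ncapd2 at 385 CPM lay within the wild types. Over their own wild-type mean, the subunits stood in E47KO replicate 2 at −0.06 (Ncapd2), −0.60 (Ncapg), −0.61 (Ncaph), −0.88 (Smc2) and −0.53 (Smc4) on the log2 scale. Smc2, an ATPase core subunit singled out after its values were seen, had 256, 289 and 319 CPM in E47wt and 253, 157 and 335 in E47KO, which was the furthest of the 46 genes below the wild-type mean in that library. The log2 fold changes of the 5 subunits ran from −0.15 (Ncapg) to −0.01 (Ncaph) in E12KO and from −0.22 (Smc2) to 0.03 (Ncapd2) in E47KO.

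Among centromere and kinetochore genes, Cenpf pointed in opposite directions in the knockouts. Cenpf, a large protein of the outer kinetochore, had 167, 221 and 183 CPM in E12wt, 196, 252 and 224 in E12KO, 215, 219.8 and 205 in E47wt and 163, 142 and 245 in E47KO. E12wt replicate 1 was its lowest wild-type library and E47KO replicate 2 the lowest of all, and the groups overlapped in both lines. Its log2 fold change was 0.24 ± 0.12 in E12KO (95% interval −0.04 to 0.52, BH-adjusted p = 0.572) and −0.22 ± 0.20 in E47KO (−0.68 to 0.25, BH-adjusted p = 0.971, both edgeR QL). The size of both hung on single libraries. In E12KO it was 0.36 without E12wt replicate 2 (unadjusted p 0.0107, BH-adjusted 0.23, edgeR QL), 0.33 without E12KO replicate 1 (unadjusted p 0.0324, BH-adjusted 0.463), and 0.14 without E12wt replicate 1 or E12KO replicate 2. In the first 2 of these settings 2158 of 15023 and 1481 of 15011 genes reached an unadjusted p under 0.05. In E47KO the fold change of Cenpf was −0.06 without replicate 2, −0.14 without replicate 1 and −0.47 without replicate 3 of that group.

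Ndc80, the kinetochore subunit that binds microtubules, had 93.3, 83.7 and 100.5 CPM in E12wt, 83.6, 89.2 and 91.2 in E12KO, 87.7, 88.1 and 99.1 in E47wt and 83.3, 72.8 and 97.3 in E47KO. E47KO replicate 2 was again the lowest library. Of the 50-base stretches of Ndc80, 5.23% also occur in other genes, with the largest number in 2700099C18Rik. Its partners in the NDC80 complex, Nuf2 and Spc25, gave log2 fold changes close to its own: −0.07 ± 0.08 (Ndc80), −0.06 ± 0.07 (Nuf2) and −0.08 ± 0.07 (Spc25) in E12KO, and −0.12 ± 0.13, −0.12 ± 0.16 and −0.11 ± 0.12 in E47KO. Cenpa, the histone H3 variant that marks the centromere, was at −0.05 ± 0.08 and 0.06 ± 0.12, and Cenpe, a kinetochore motor, at 0.05 ± 0.10 and −0.13 ± 0.18.

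The spindle assembly checkpoint genes share 1 pathway and differed in how far they spread. Bub1, a checkpoint kinase at the kinetochore, had 152, 139 and 162 CPM in E12wt, 139, 149.6 and 143 in E12KO, 136, 145 and 154 in E47wt and 137, 104 and 162 in E47KO. Mad2l1, which encodes MAD2, the protein that inhibits CDC20, had 115, 107 and 119.6 CPM in E12wt, 106, 113 and 110.3 in E12KO, 102, 111 and 123 in E47wt and 104, 68.7 and 125 in E47KO. Bub3, which recruits BUB1 and BUBR1 to kinetochores, had 157, 150.0 and 166 CPM in E12wt, 164, 148 and 168 in E12KO, 167, 155 and 173 in E47wt and 170.0, 149 and 178 in E47KO. The E47KO libraries ran from 68.7 to 125 CPM for Mad2l1 and from 149 to 178 CPM for Bub3, so that Mad2l1 spread the most of the 3 and Bub3 the least. In E47KO the log2 fold changes were −0.11 ± 0.17 for Bub1, −0.18 ± 0.21 for Mad2l1 and 0.00 ± 0.11 for Bub3, and in E12KO −0.06 ± 0.07, −0.05 ± 0.06 and 0.03 ± 0.07. Bub1b (BUBR1) and Ttk (the kinase MPS1) gave −0.02 ± 0.06 and −0.09 ± 0.09 in E12KO and −0.01 ± 0.13 and −0.14 ± 0.18 in E47KO.

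The chromosomal passenger complex, which corrects faulty attachments and later guides cytokinesis, was measured by 3 subunits. Its kinase Aurkb had 87.7, 88.6 and 102 CPM in E12wt, 89.5, 82.9 and 93.2 in E12KO, 79.6, 84.9 and 98.2 in E47wt and 89.7, 77.1 and 101 in E47KO. Birc5 (survivin), the subunit that docks the complex on chromatin, had 102, 92.2 and 107 CPM in E12wt, 93.02, 96.9 and 98.5 in E12KO, 90.4, 91.3 and 110.4 in E47wt and 91.4, 75.002 and 113 in E47KO. E12KO replicate 2 was below all E12wt libraries for Aurkb, and E47KO replicates 2 and 3 lay on opposite sides of the wild types for both genes. Log2 fold changes were −0.06 ± 0.08 and −0.06 ± 0.07 in E12KO and 0.03 ± 0.14 and −0.06 ± 0.17 in E47KO, with −0.03 ± 0.06 and −0.04 ± 0.16 for the scaffold Incenp.

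Spindle motors and microtubule proteins had log2 fold changes from −0.13 to 0.06 in E12KO and from −0.20 to 0.02 in E47KO. Kif11, the motor Eg5 that pushes spindle poles apart, had 363, 353 and 399.6 CPM in E12wt, 349.9, 385 and 342 in E12KO, 353, 375 and 396 in E47wt and 319, 251 and 407 in E47KO. Tpx2, which nucleates microtubules near chromosomes and activates Aurora A, had 375, 371 and 432 CPM in E12wt, 376, 392 and 379 in E12KO, 367, 395 and 399.6 in E47wt and 349, 318 and 411 in E47KO. Nusap1, a protein that bundles spindle microtubules, had 233, 211 and 241 CPM in E12wt, 201, 221 and 204 in E12KO, 212, 223 and 223 in E47wt and 191, 188 and 223 in E47KO. For Nusap1, 2 of 3 E12KO libraries lay below all E12wt libraries and 2 of 3 E47KO libraries below all E47wt libraries. Its log2 fold changes were −0.12 ± 0.07 (BH-adjusted p = 0.594) and −0.13 ± 0.11 (BH-adjusted p = 0.971, both edgeR QL). Kif11 gave −0.04 ± 0.07 and −0.20 ± 0.17 and Tpx2 −0.03 ± 0.07 and −0.11 ± 0.12. The microtubule depolymerase Kif2c gave −0.13 ± 0.11 and 0.02 ± 0.15, the chromokinesin Kif4 −0.02 ± 0.06 and −0.16 ± 0.16, and Hmmr, a spindle protein and hyaluronan receptor, 0.06 ± 0.08 and −0.10 ± 0.14.

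All 3 anaphase genes had fold changes above 0 in E12KO, as did 2 of 3 in E47KO, and none passed the test. Cdc20, the activator of the APC/C, had 144, 140.2 and 159 CPM in E12wt, 146, 147 and 162 in E12KO, 145, 151 and 162 in E47wt and 157, 154 and 183 in E47KO. Ube2c had 130.2, 113 and 141 CPM in E12wt, 129, 118 and 138 in E12KO, 129, 123 and 155 in E47wt and 146, 119 and 153 in E47KO. Cdc20 was highest in E47KO replicate 3, and its other E47KO libraries lay among the wild types. Log2 fold changes were 0.04 ± 0.07, 0.01 ± 0.09 and 0.09 ± 0.08 for Cdc20, Ube2c and Espl1 in E12KO and 0.11 ± 0.11, 0.04 ± 0.14 and −0.03 ± 0.22 in E47KO. Counts of Cdc20 are less certain, since 11.4% of its 50-base stretches also occur in other genes, with the largest number in Gm7856.

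The cytokinesis genes included Anln, the most spread of the 46 genes in E47KO. Kif20a, the motor that brings the passenger complex to the midzone, had 154, 160.4 and 185 CPM in E12wt, 160.3, 176 and 177 in E12KO, 156, 172 and 182 in E47wt and 162, 156 and 194 in E47KO. Kif23, the motor of the centralspindlin complex, had 121, 114 and 137 CPM in E12wt, 123, 128 and 124 in E12KO, 111, 117 and 137 in E47wt and 117, 92.8 and 145 in E47KO. In E47KO replicate 2, Kif20a was at the level of E47wt replicate 1, while Kif23 was the lowest of its 12 libraries. Anln (anillin), the scaffold of the contractile ring, had 77.7, 84.4 and 109 CPM in E12wt, 77.7, 104 and 94.1 in E12KO, 72.4, 87.2 and 109.7 in E47wt and 77.5, 60.4 and 131 in E47KO. Ect2, the exchange factor that activates RhoA there, had 121, 119.9 and 145 CPM in E12wt, 119, 138 and 131 in E12KO, 113, 119 and 146 in E47wt and 115, 83.997 and 159 in E47KO. Anln and Ect2 in E47KO replicate 3 exceeded every other library, and in E47KO replicate 2 they were lowest of all.

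The coefficient of variation of Anln over the 3 E47KO libraries was 41.1%, and its log2 fold change of −0.00 ± 0.29 carried an interval of −0.69 to 0.68. Ect2 was at −0.08 ± 0.23, Kif20a at 0.01 ± 0.12 and Kif23 at −0.04 ± 0.18 in E47KO. In E12KO the 4 stood at 0.03 ± 0.14, 0.01 ± 0.09, 0.05 ± 0.08 and 0.02 ± 0.08. Prc1, which crosslinks midzone microtubules, gave 0.02 ± 0.07 and −0.08 ± 0.11, and Racgap1, the other part of centralspindlin, −0.04 ± 0.07 and −0.09 ± 0.15, with 7.39% of the 50-base stretches of Racgap1 shared with other genes.

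**Figure D3:**
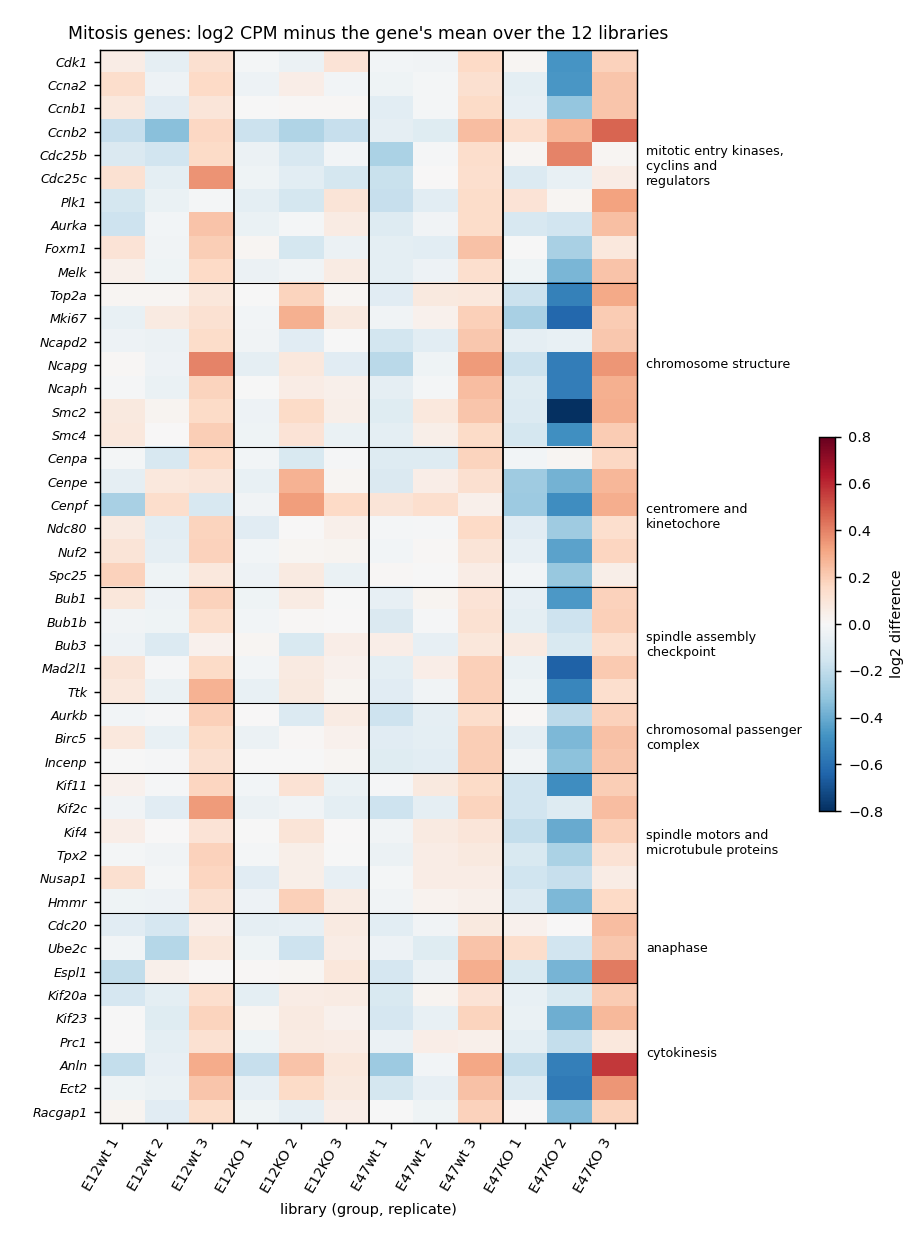
Log2 CPM of each mitosis gene (rows, grouped by role) in each of the 12 libraries (columns, by group and replicate) minus the gene's mean over the libraries, with red above and blue below the mean and values past 0.8 in the end colours. The column of E47KO replicate 2 is blue for 41 of 46 genes, with Ccnb2 and Cdc25b red, and those of E47KO replicate 3 and E47wt replicate 3 are red for all 46.

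The mitosis genes varied together from library to library, by more than the median differences between genotypes. As a median over the 46 genes, the log2 level relative to the mean of the 12 libraries was −0.00, −0.05 and 0.15 in E12wt, −0.03, 0.03 and 0.03 in E12KO, −0.08, −0.02 and 0.15 in E47wt and −0.08, −0.36 and 0.21 in E47KO. The median over all genes tested stayed between 0.00 and 0.02 in every library. Replicate 3 was the high library of both wild types and of E47KO, and replicate 2 of E47KO was the low one. Of the 46 genes, 34 had their lowest value of all 12 libraries in E47KO replicate 2 (30.1% of all genes did) and 25 their highest in E47KO replicate 3 (12.1% of all genes). E12wt replicate 3 was the highest E12 library for 35 of 46 genes (26.9% of all genes) and E47wt replicate 3 the highest E47wt library for 43 of 46 (40.7% of all genes). With total counts as the scale, the median in E47KO replicate 2 was −0.29 and with median-of-ratios factors −0.35, and in E47KO replicate 3 it was 0.19 and 0.21. The medians over all genes on these scales were 0.07 and 0.01 in E47KO replicate 2 and −0.01 and 0.01 in E47KO replicate 3.

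**Figure D4:**
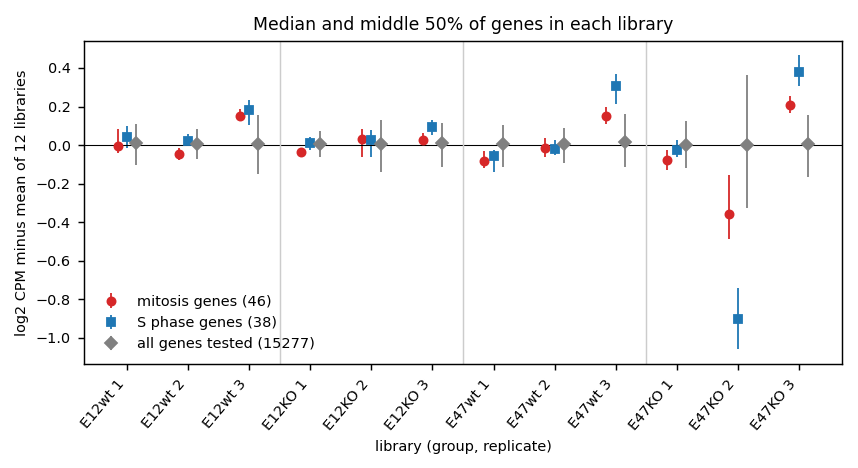
Median (points) and middle 50% of genes (lines) of log2 CPM minus the mean of the 12 libraries (vertical axis) in each library (horizontal axis), for 46 mitosis genes (red), 38 S phase genes (blue) and 15277 genes tested (grey). Red and blue points lie lowest in E47KO replicate 2, at −0.36 and −0.90, and highest in E47KO replicate 3, at 0.21 and 0.38.

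Within the E47 line, E47KO replicate 2 lay below all 3 E47wt libraries for 37 of 46 genes (38.2% of all genes) and E47KO replicate 3 above all 3 for 37 of 46 (26.7% of all genes). Both held at once for 31 genes (15.2% of all genes), and E47KO replicate 1 lay between the other E47KO libraries for 40 (28.5% of all genes). Against the mean of E47wt, the median over the 46 genes was −0.10, −0.37 and 0.19 on the log2 scale in E47KO replicates 1, 2 and 3, with 7, 5 and 46 genes above it. In the E12 line the same medians were −0.07, −0.03 and −0.02, with 4, 16 and 19 genes above the mean of E12wt. The median coefficient of variation of the 46 genes was 18.7% in E47KO (from 6.04 to 41.1%), against 7.77% in E12wt, 4.40% in E12KO and 8.63% in E47wt. Over 4689 genes in the same range of CPM it was 13.9% in E47KO, 5.31% in E12wt, 5.55% in E12KO and 6.25% in E47wt.

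The low values of E47KO replicate 2 were not even across roles. The median relative to E47wt was −0.60 on the log2 scale for chromosome structure, −0.48 for the checkpoint, −0.40 for cytokinesis, −0.37 for the centromere and kinetochore, −0.34 for the passenger complex, −0.33 for spindle proteins, −0.23 for mitotic entry and −0.19 for anaphase. Smc2 (−0.88), Mad2l1 (−0.71) and Mki67 (−0.69) lay lowest. The 5 genes above the wild-type mean there were Cdc25b (0.43), Ccnb2 (0.23), Plk1 (0.05), Cenpa (0.02) and Cdc20 (0.01). All 5 of these genes held a CHR and a CCAAT box in their promoter, as did the windows of Cdk1 and Top2a printed above, which lay at −0.51 and −0.57. Of the 33 genes below the mean that have a promoter in the table, 25 held a CHR and 24 a CCAAT box. In E47KO replicate 3 the medians of the 8 roles lay between 0.13 and 0.26.

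**Figure D5:**
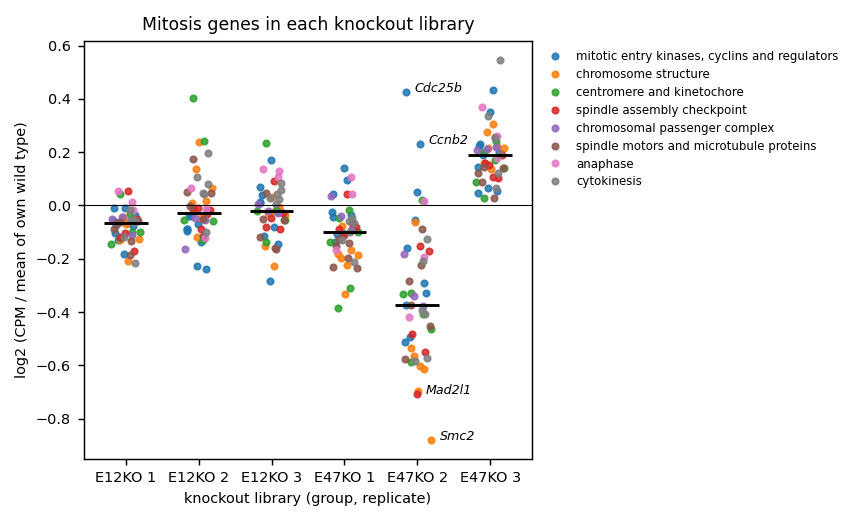
Log2 ratio of each mitosis gene's CPM to the mean of its own wild type (vertical axis) in the 6 knockout libraries (horizontal axis), with 1 point a gene coloured by role and black bars for the median. E47KO replicate 2 spreads from −0.88 (Smc2) to 0.43 (Cdc25b), and all 46 points of E47KO replicate 3 lie above 0.

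S phase genes, which replicate DNA before mitosis begins, followed the same libraries further. In E47KO replicate 2 the median over 38 S phase genes was −1.01 on the log2 scale relative to E47wt, with 38 of 38 below it, against −0.37 and 41 of 46 for the mitosis genes. Pcna, the replication clamp, had 449.8, 454 and 490.3 CPM in E47wt and 433, 239 and 522 in E47KO, and Rrm1, a subunit of ribonucleotide reductase, 550.1, 575 and 599.9 and 523, 381 and 616. In E47KO replicate 3 the S phase median was 0.29, with 38 of 38 above. No S phase gene was called by edgeR's QL test, and the median log2 fold change over the list was −0.04 in E12KO and −0.17 in E47KO.

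Markers of other cell types also differed between libraries. In E47KO replicate 2 the 8 astrocyte markers were all above their 12-library mean, with a median of 0.80 on the log2 scale, and 6 of 7 oligodendrocyte lineage markers were, with a median of 1.09. Summed astrocyte markers ran from 713 to 1044 CPM in E47wt and from 811 to 1283 in E47KO, and summed oligodendrocyte markers from 239 to 280 and from 195 to 486, with Mog at 0 in all E47KO libraries. The 3 libraries with the highest mitosis genes did not share 1 pattern of oligodendrocyte lineage and astrocyte markers. The oligodendrocyte lineage median was 0.83 in E12wt replicate 3 (7 of 7 markers above their mean), −0.07 in E47wt replicate 3 (2 of 7) and −0.86 in E47KO replicate 3 (1 of 7), and the astrocyte median was −0.48, −0.26 and 0.11. Neural stem cell markers had their lowest medians in these 3 libraries, at −0.11, −0.09 and −0.09 (2, 3 and 3 of 8 above their mean). Their highest median, 0.19, was in E47KO replicate 2 (5 of 8 above). Neuron markers summed to 1386 to 1430 CPM in E47wt and 1116 to 1389.6 in E47KO, most of it from Map2 (966 to 1164 CPM). Of the 12 only Stmn2 and Neurod2 were at 0 in some library of the E47 line. In E47KO 8 of 9 neuron markers tested had a log2 fold change below 0 (median −0.15). The astrocyte median was 0.57 with 6 of 8 above 0, and the oligodendrocyte lineage median 0.06 with 4 of 7 above 0.

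In the E12 line the oligodendrocyte lineage markers summed to 252 to 377 CPM in E12wt and 182 to 242 in E12KO, with Mog at 0 throughout. All 7 that were tested had a log2 fold change below 0 in E12KO (median −0.69), and 4 of them had all knockout libraries lower (7.17% of all genes did). Of 9 neuron markers tested, 8 had a log2 fold change below 0 in E12KO (median −0.38) and 3 had all knockout libraries lower, while the 12 together summed to 1334 to 1413 CPM in E12wt and 1289.6 to 1453 in E12KO, with Stmn2 and Neurod2 at 0 in some library. Astrocyte markers summed to 733 to 1063 CPM in E12wt and 923 to 1141 in E12KO, with a median log2 fold change of 0.29 and 5 of 8 above 0. None of these neural markers was called in either knockout by edgeR's QL test, and an unadjusted p under 0.05 was reached in E12KO by 4 oligodendrocyte lineage, 4 neuron and 2 astrocyte markers and in E47KO by 0, 1 and 2 (8.96% and 2.19% of all genes). The part of these markers in the levels of the mitosis genes was not tested. Mesenchymal markers summed to 8.33 to 11.8 CPM in E12wt and 1.84 to 3.56 in E12KO. Of 5 tested in E12KO, 4 had a log2 fold change below 0 and 1 above it (0.94). Bgn, Col1a2 and Col1a1 were called lower. In the E47 line the mesenchymal markers summed to 2.34 to 16.4 CPM in E47wt, highest in replicate 1, and 2.69 to 3.84 in E47KO. Microglia markers summed to 1.15 CPM at most and endothelial markers to 7.17.

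Leaving out single libraries showed how the spread in E47KO bears on the estimates. Without E47KO replicate 2 the median of the 46 log2 fold changes was 0.05, and without E47KO replicate 3 it was −0.20. In that second setting 5 mitosis genes reached an unadjusted p under 0.05, namely Cenpf (−0.47), Mki67 (−0.48), Cenpe (−0.34), Kif4 (−0.32) and Kif11 (−0.37), all with a BH-adjusted p of 0.505 (edgeR QL). Over all genes 1416 of 15135 reached it in the same setting, and 328 of 14965 with all libraries. Without E12wt replicate 3 the median in the E12 line was 0.02.

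Whether the knockouts of E12 and E47 act differently on mitosis genes was tested as the difference of their effects in all 12 libraries. No gene of the 46 was called by edgeR's QL test or reached an unadjusted p under 0.05, and over all 15277 genes 0.0% were called, with 463 at an unadjusted p under 0.05 and 1 called by DESeq2 (0.00655%, none of the 46). The median difference, E47 minus E12, was −0.03 (0.01 over all genes), with 17 of 46 above 0, and turned to 0.01 with total counts as the scale, where the median of all genes was 0.05. Cenpf had the lowest difference, −0.45 ± 0.25 on the log2 scale (95% interval −1.01 to 0.10), and Ccnb2 the highest, 0.35 ± 0.20 (−0.08 to 0.79). Both had a BH-adjusted p of 0.932 (edgeR QL). Next by p came Mki67 at −0.33 ± 0.24, Cdc25c at 0.20 ± 0.17 and Cdc25b at 0.21 ± 0.19. All 46 intervals held 0, and 31 lay within a 1.5-fold change. Without E47KO replicate 2 the count above 0 was 40, without E47wt replicate 3 it was 31, without E12wt replicate 2 it was 29, and without E47KO replicate 3 or E12wt replicate 3 it was 10. Y-linked transcripts were high in all 3 E47KO libraries and at 0.149 CPM or less in the E12 line. No sex term was fitted for the difference, so the part of sex in it was not tested.

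Wild-type cells of the E12 and E47 litters carry no mutation and showed how far mitosis genes differ without one. None of the 46 was called in E47wt against E12wt by edgeR's QL test, where 0.0% of 14892 genes were called (568 at an unadjusted p under 0.05, and 7, or 0.047% and none of the 46, called by DESeq2). The median log2 fold change was −0.02 (−0.00 over all genes), and 46 of 46 intervals lay within a 1.5-fold change and 37 within a 1.25-fold change. Cenpf (0.16 ± 0.10), Cdc25c (−0.15 ± 0.13), Bub3 (0.06 ± 0.06), Nusap1 (−0.06 ± 0.07) and Ccnb2 (0.14 ± 0.15) had the smallest p-values, all with a BH-adjusted p of 1.00 (edgeR QL). In this comparison line, litter and handling cannot be told apart. Sex also differed in part, since Y-linked transcripts were at 243 CPM in E47wt replicate 2 alone of these libraries.

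Other genes of mitosis, 139 in 6 lists outside the 46, likewise had no call in either knockout by edgeR's QL test. In E12KO 2 of the 139 and in E47KO 0 reached an unadjusted p under 0.05 (8.96% and 2.19% of all genes). Cohesin and condensin II, which hold and shape sister chromatids, had a median log2 fold change of −0.16 in E47KO with 1 of 15 above 0 and of 0.01 in E12KO with 8 of 15 above 0. Rad21 and Smc1a, core cohesin subunits, gave −0.10 ± 0.11 and −0.16 ± 0.16 in E47KO and −0.09 ± 0.06 and 0.04 ± 0.06 in E12KO. Other kinetochore and checkpoint genes had medians of −0.07 in E12KO and −0.10 in E47KO, with 11 and 8 of 35 above 0, and the centromere chaperone Hjurp gave −0.12 ± 0.10 and −0.11 ± 0.17 and the kinetochore protein Zwint 0.00 ± 0.06 and −0.19 ± 0.12.

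Other mitotic entry and exit enzymes stood at −0.07 and −0.09 with 5 of 22 above 0 in each knockout, with the phosphatase genes Ppp1cc at −0.06 ± 0.06 and −0.08 ± 0.11 and Ppp2r2a at −0.13 ± 0.06 and −0.28 ± 0.14. Other spindle and cytokinesis genes had medians of −0.02 and −0.07 with 10 of 27 above 0 in each, and Ckap5, a microtubule polymerase, gave 0.07 ± 0.08 and −0.10 ± 0.13 and its partner Tacc3 −0.07 ± 0.06 and −0.07 ± 0.11. Subunits and regulators of the APC/C had medians of −0.01 and 0.02 with 8 and 9 of 18 above 0, and Anapc1 and Anapc5 gave −0.18 ± 0.15 and −0.01 ± 0.10 in E47KO. Regulators of mitotic transcription, which hold MuvB subunits, E2F factors and NF-Y, had medians of −0.03 and −0.08 with 7 of 22 above 0 in each. Rbbp4, a MuvB subunit, gave −0.04 ± 0.06 and −0.14 ± 0.11, and Tfdp1, the dimer partner of E2F factors, −0.05 ± 0.06 and −0.20 ± 0.25. In E47KO replicate 2 the log2 level relative to E47wt was −0.50 at the median of the cohesin and condensin II genes, −0.21 for other spindle and cytokinesis genes and −0.11 for the APC/C.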

How the data were processed

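Strand-specific mRNA libraries (TruSeq Stranded mRNA kit, per the labels' protocols) of 12 cell samples were processed by the authors; the submitters' processing notes name STAR 2.5, build mm9, DESeq2 and DESeq, and no annotation. The deposited values are read counts per gene in 3 strand versions, of which opposite-strand counts, 97.1 to 97.2% of strand-assigned reads, were used. Rows that name no gene (14.2 to 17.5% of all reads) were left out. The authors also deposited, per line, normalized signal per library, log2 fold changes, p-values and a score that divides each fold change by its standard error. The deposited signal is the count of both strands over a factor that is constant within a library, and fold changes and adjusted p-values printed from these tables are named as the authors'.

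Counts were fitted in R 4.3.3 with edgeR 4.0.16 (TMM, its low-count filter by group, QL F test, two-sided, BH over all genes tested, called at an adjusted p under 0.05, prior count 0.125), each line with its own 6 libraries and the difference in all 12. Intervals are 95% and come from the fit. DESeq2 1.42.0 was an alternative. The script was tested on simulated data. Levels are CPM of the 12 libraries scaled together by TMM; library medians use log2 CPM with a prior count of 2. Lengths came from GENCODE M21 principal transcripts and promoters from RefSeq (GRCm38.p6); no other coordinates were used. The floor of 3 reads covers counting error only. No 2 libraries of a group were alike within sampling noise (chi-square per degree of freedom 12.9 or more).

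Replicate numbers are shared by the groups, with no label on what they mark. Deviations from group means of same-numbered E47wt and E47KO libraries correlated at 0.10, 0.23 and 0.45. By the rule used (every pair over 0.1) this pairs them on the data alone, but the first pair passed only narrowly (0.1002). E47wt replicate 1 correlated higher with E47KO replicate 2, at 0.15, and the other differently numbered pairs lay from −0.33 to −0.01. In the E12 line the same-numbered values were 0.09, 0.06 and −0.01. The main fits used no pairing. The members, lists and tests were chosen with earlier results of these data known. By rule, values per library are given for 21 genes that represent their roles and for the 5 members with the smallest p in each comparison, and each related list names the 2 genes with the highest CPM, or up to 3 called. Ccna2, Cdc25c, Foxm1, Smc4, Aurkb, Incenp, Tpx2 and Kif20a had no promoter entry. Alternatives were other normalizations, DESeq2, other filters, counts of both strands, all libraries in the same fit, a replicate block, a sex term (E47 line only) and leaving out each library.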

Additional observations from a re-analysis of the deposited data

How the results depend on the processing

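No mitosis gene was called in any of the 14, 15, 19 and 14 alternatives run for the E12 line, the E47 line, their difference and the wild types; the lowest BH-adjusted p of the 46 over them (edgeR QL or DESeq2) was 0.223, 0.505, 0.425 and 0.669, and 0 to 4, 0 to 5, 0 to 5 and 0 to 1 of them reached an unadjusted p under 0.05. Their median log2 fold change ran from −0.07 to 0.02, −0.20 to 0.05, −0.16 to 0.09 and −0.08 to 0.04. Where the counts under that unadjusted p were highest, the counts over all genes were as follows. Without E12wt replicate 2, 2158 of 15023 reached it in the E12 line. Without E47KO replicate 3, 1416 of 15135 did in the E47 line and 1804 of 15531 for the difference. For the wild types, 890 of 15176 did without E12wt replicate 2 and 473 of 15200 without E12wt replicate 3. Leaving out 1 library moved the count of the 46 above 0 to between 8 and 32 in the E12 line, 5 and 34 in the E47 line, 10 and 40 for the difference and 3 and 37 for the wild types (3 without E47wt replicate 3, 37 without E12wt replicate 3, 35 without E47wt replicate 1, 20 without E47wt replicate 2). A sex term, which sets E47KO against E47wt replicate 2 alone, gave 19 in the E47 line. The replicate block left these counts at 15, 11, 12 and 12 and changed no call of a mitosis gene. Under it 1, 1, 2 and 1 of the 46 reached an unadjusted p under 0.05 (edgeR QL). Among them were Cenpf (0.00551 in the E12 line) and Ccnb2 (0.0497 in the E47 line). Over all genes 1349 of 14755, 493 of 14965, 566 of 15277 and 1109 of 14892 reached it under the block. Calls over all genes, 6 in the E12 line, became 76 with DESeq2, 20 without a low-count filter, 2 with all 12 libraries in the fit and 4 with the replicate block, and 2 to 10 without 1 library (10 without E12wt replicate 3, 2 without E12KO replicate 2 or 3). The 2 calls in the E47 line became 12 with DESeq2 and 1 with 10 counts in every library. They became 0 to 7 without 1 library (0 when E47wt replicate 3 was left out, 1 when E47KO replicate 1 or E47wt replicate 1 was, and 7 when E47wt replicate 2 was). DESeq2 gave 1 call for the difference and 7 for the wild types, where all 12 libraries in the fit gave 1, and leaving out 1 library gave 0 to 1 calls for the difference, with the 1 without E47wt replicate 2. The cause of these moves was not tested.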
